A study of Mus musculus with 10 samples.

Results

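The genes described here are the 9 genes Shmt1, Shmt2, Mthfd1, Mthfd2, Mthfd1l, Tyms, Rrm1, Rrm2 and Tk1, which encode enzymes of one-carbon metabolism and of deoxynucleotide synthesis. They were chosen by symbol, and all 9 were found among the 20813 genes of the deposited table. All 9 also passed the filter on low values, a mean normalized count of at least 10 over the 10 samples. The rule names the genes and uses no measured value, but earlier results of these data were known when they were chosen.

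RNA was sequenced from spleens of C57BL/6 mice that carried an injected T-ALL, the acute lymphoblastic leukemia of the T cell lineage, a cancer of immature T cells. All leukemias carried a conditional knockout allele of Sirt1, the gene of a NAD-dependent deacetylase, and all recipients were irradiated below the lethal dose before they were injected. The 5 samples labelled Sirt1 deleted have titles that begin with TMX, and the treatment text gives 3 mg of tamoxifen per mouse in corn oil by intraperitoneal injection. The 5 control samples have titles that begin with VEH, and vehicle mice received corn oil alone. Tamoxifen and the deletion therefore divide the samples in the same way and cannot be told apart. The Cre driver, the age of the mice, the number of primary leukemias and the time between treatment and collection are not given in the sources used here. The samples are called replicates 7, 8, 10, 11 and 12 of the labelled Sirt1-deleted group and replicates 2 to 6 of the controls, after the numbers in their titles. Nothing says which samples share a primary leukemia, so p-values measure the spread between these samples.

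Folate carries one-carbon units in a loop that runs through the mitochondria and the cytosol. Serine hydroxymethyltransferases load the unit from serine, the MTHFD enzymes change its oxidation state or release it as formate, and thymidylate synthase spends it to make thymidylate. Ribonucleotide reductase makes the other deoxynucleotides from ribonucleotides, and thymidine kinase recovers thymidine from outside the cell. The genes of the last 3 enzymes are known for high expression in dividing cells, and T-ALL is treated with drugs that block the folate cycle.

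The value of Sirt1 did not separate the groups. Controls had between 1735 and 1909 normalized counts, and the labelled Sirt1-deleted samples had between 1715 and 2097 (log2 difference 0.05, exact two-sided permutation p = 0.413). The exons removed from the allele are not given here, and a gene-level value cannot check a deletion of part of a gene, so the samples are called by their label. Deposited totals were 33.7 M to 34.5 M per sample (M, 1000000), and the spacing of low values put the depth at about 31.3 M to 38.3 M reads. All 16 T lineage markers were detected, of which 2 rose and 4 fell, with summed values of 237285 to 250328 in controls and 238983 to 263244 in the labelled Sirt1-deleted samples. The spleens held other cells too. The summed value of 14 neutrophil markers was 9135 to 12610 in controls and 28861 to 99812 in the labelled Sirt1-deleted samples, and 13 of the 14 rose. For 16 macrophage and monocyte markers, of which 14 rose, the ranges were 3651 to 4153 and 7432 to 14512. Of 8 B cell markers 1 rose, none of 11 tested erythroid markers passed the test, and 2 of 7 tested stromal and endothelial markers fell. The summed erythroid value varied widely within both groups, from 43251 to 134741 in controls and from 39659 to 161233 in the labelled Sirt1-deleted samples. No listed marker found in the table was at 0 in every sample. In a bulk sample, fewer cells of a type and less RNA per cell cannot be told apart.

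Over all 15276 tested genes, 36.1% passed the test of limma (a linear model with moderated variances) at a Benjamini-Hochberg adjusted p under 0.05, with 16.8% higher and 19.4% lower in the labelled Sirt1-deleted samples. Of the 9 genes, 4 passed, with 3 lower and 1 higher, a share near that background. Mthfd1l and Shmt1 fell, and for both of them every labelled Sirt1-deleted sample was below every control. Groups lay apart, in either direction, for 24% of all tested genes. Tyms fell and Rrm1 rose by margins close to the threshold. Shmt2, Mthfd1, Mthfd2, Rrm2 and Tk1 did not pass. The median log2 difference of the 9 genes was -0.15, beside -0.00014 for all tested genes. The sizes were modest throughout: no gene of the set changed by more than 20% of the control mean.

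The promoter stretches of 3 of the 4 genes that passed are shown first, because their values moved and the stretch lies before the RefSeq start of the gene and outside every annotated exon. The Shmt1 stretch also lies before the start of the longest coding transcript, but within the span of a longer noncoding transcript in GENCODE. Each is 120 bases, taken from RefSeq windows on GRCm38.p6, which is the mm10 assembly that the submitters' processing notes name, and each is written on the strand of the gene. Capitals mark matches to the motifs described after them.
Shmt1: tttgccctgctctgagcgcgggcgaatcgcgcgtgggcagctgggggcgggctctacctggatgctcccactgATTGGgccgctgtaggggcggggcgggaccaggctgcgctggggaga
Tyms: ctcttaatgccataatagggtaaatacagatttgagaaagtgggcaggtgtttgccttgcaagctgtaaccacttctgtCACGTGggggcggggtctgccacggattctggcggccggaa
Rrm1: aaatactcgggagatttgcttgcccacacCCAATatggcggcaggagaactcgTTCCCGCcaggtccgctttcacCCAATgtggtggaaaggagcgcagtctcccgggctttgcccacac

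The Shmt1 stretch is chr11:60811266-60811385 on the minus strand, the Tyms stretch is chr5:30073646-30073765 on the minus strand, and the Rrm1 stretch is chr7:102441575-102441694 on the plus strand. All 9 genes matched a window of 300 bases, from 250 before to 50 after a listed start, and 6 short motifs were searched in it on both strands. The CCAAT box, CCAAT, was in the windows of 5 genes (Mthfd1, Mthfd2, Rrm1, Rrm2 and Shmt1), and in 37.4% of all 32851 windows. The E2F-type motif GCGGGAA was in those of Mthfd1 and Rrm1 (4.60% of all windows), and the other E2F-type motif, GCGCCAA, was in that of Shmt1, after the start (2.45%). The E-box CACGTG, which MYC and related factors bind, was in the Tyms window (7.15%). The motif TTTGAA of late cell cycle genes (17.9%) and the ATF4-type motif TGATGCA (3.15%) were in none of the 9. None of these letters overlapped another match in the stretches shown. The windows of Mthfd1l, Shmt2 and Tk1 held none of the 6 motifs. The matches are letters in a window and did not divide the genes that fell from those that did not: the CCAAT box was in Shmt1, which fell, in Rrm1, which rose, and in Rrm2, which did not pass.

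Among the serine hydroxymethyltransferases, the gene of the cytosolic form fell and that of the mitochondrial form did not pass the test. Shmt1 (ENSMUSG00000020534.14, GRCm38 chr11:60788104-60811718) encodes the cytosolic enzyme, which passes one-carbon units from serine to folate. Its normalized counts in controls 2 to 6 were 3759, 3912, 3765, 4181 and 3774, and in labelled Sirt1-deleted replicates 7, 8, 10, 11 and 12 they were 3121, 3295, 3731, 3300 and 2703. Every labelled Sirt1-deleted sample lay below every control, although replicate 10 was almost level with the lowest control. The mean fell by 16.7%, from 3878 ± 181 to 3230 ± 371 (mean ± SD, n = 5 per group), a log2 difference of -0.27 (SE 0.07, limma adjusted p = 0.0136). The gene shares 4.74% of its annotated exonic bases with Smcr8 on the other strand, and Smcr8 fell as well (log2 difference -0.33, limma adjusted p = 0.00301). Whether the counting used strand is not given, so reads from the shared bases cannot be assigned to either gene.

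Shmt2 encodes the mitochondrial serine hydroxymethyltransferase, the main entry of serine carbon into folate in many dividing cells. Its controls had 12225, 13351, 11320, 12498 and 12753 normalized counts, and the labelled Sirt1-deleted samples had 10633, 10944, 12243, 11992 and 10173. Replicates 7, 8 and 12 lay below every control, while 10 and 11 lay among the controls. The difference did not pass (log2 difference -0.15, 95% interval -0.28 to -0.02, limma adjusted p = 0.0688). The ratio of Shmt2 to Shmt1 within a sample, which does not depend on scaling between samples, was 2.99 to 3.41 in controls and 3.28 to 3.76 in the labelled Sirt1-deleted samples. The ratio differed by 0.12 on the log2 scale, which did not pass (exact two-sided permutation p = 0.0952, adjusted p = 0.114 over 6 ratios), so a difference between the response of the 2 forms was not shown.

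Of the genes that process the folate-bound unit, the mitochondrial formate-releasing synthetase had the largest fall of the 9. Mthfd1l (ENSMUSG00000040675.17, chr10:3973118-4167081) encodes this enzyme, whose product formate leaves the mitochondrion. Controls had 5418, 4621, 4915, 4861 and 4630 normalized counts, and the labelled Sirt1-deleted samples had 3581, 3858, 4612, 4228 and 3390. The groups did not overlap, but replicate 10 at 4612 and control 3 at 4621 were almost level. The mean fell by 19.5%, from 4889 ± 324 to 3934 ± 493 (mean ± SD, n = 5 per group), with a log2 difference of -0.32 (SE 0.08, 95% interval -0.49 to -0.15, limma adjusted p = 0.00898). For both Mthfd1l and Shmt1 the exact two-sided permutation p was 0.00794, the smallest that 5 samples against 5 can give.

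Mthfd1 encodes the cytosolic trifunctional enzyme that takes formate back up into folate. Its controls had 6848, 6620, 6234, 7000 and 6847 normalized counts, and the labelled Sirt1-deleted samples had 5438, 5743, 7471, 6806 and 4958. The latter were split: replicate 10 was above every control, replicate 11 was among them, and replicates 7, 8 and 12 were below all of them. With an SD of 1030 in this group against 298 in controls, the difference did not pass (log2 difference -0.16, 95% interval -0.36 to 0.05, limma adjusted p = 0.216). The ratio of Mthfd1l to Mthfd1 was 0.68 to 0.79 in controls and 0.62 to 0.68 in the labelled Sirt1-deleted samples, a log2 difference of -0.16 (exact two-sided permutation p = 0.0159, adjusted p = 0.0635 over 6 ratios), which missed the threshold.

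Mthfd2 encodes the mitochondrial dehydrogenase and cyclohydrolase that is often raised in tumours, and it did not pass the test. Controls had 3188, 4268, 3300, 3967 and 4561 normalized counts, and the labelled Sirt1-deleted samples had 3438, 3708, 4657, 4353 and 3862. Controls 2 and 4 were the lowest of the 10 and replicate 10 the highest, and the groups overlapped widely. The log2 difference was 0.06 with a 95% interval of -0.18 to 0.29 (limma adjusted p = 0.702). Mthfd2l, its close relative in mitochondria, had 80.6 ± 8.48 normalized counts in controls and 77.5 ± 15.7 in the labelled Sirt1-deleted samples (mean ± SD, n = 5 per group; limma adjusted p = 0.757). The ratio of Mthfd2 to Mthfd2l differed by 0.13 (exact two-sided permutation p = 0.635), and the sign of this value rested on replicate 10: without it the difference was -0.04.

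**Figure D1:**
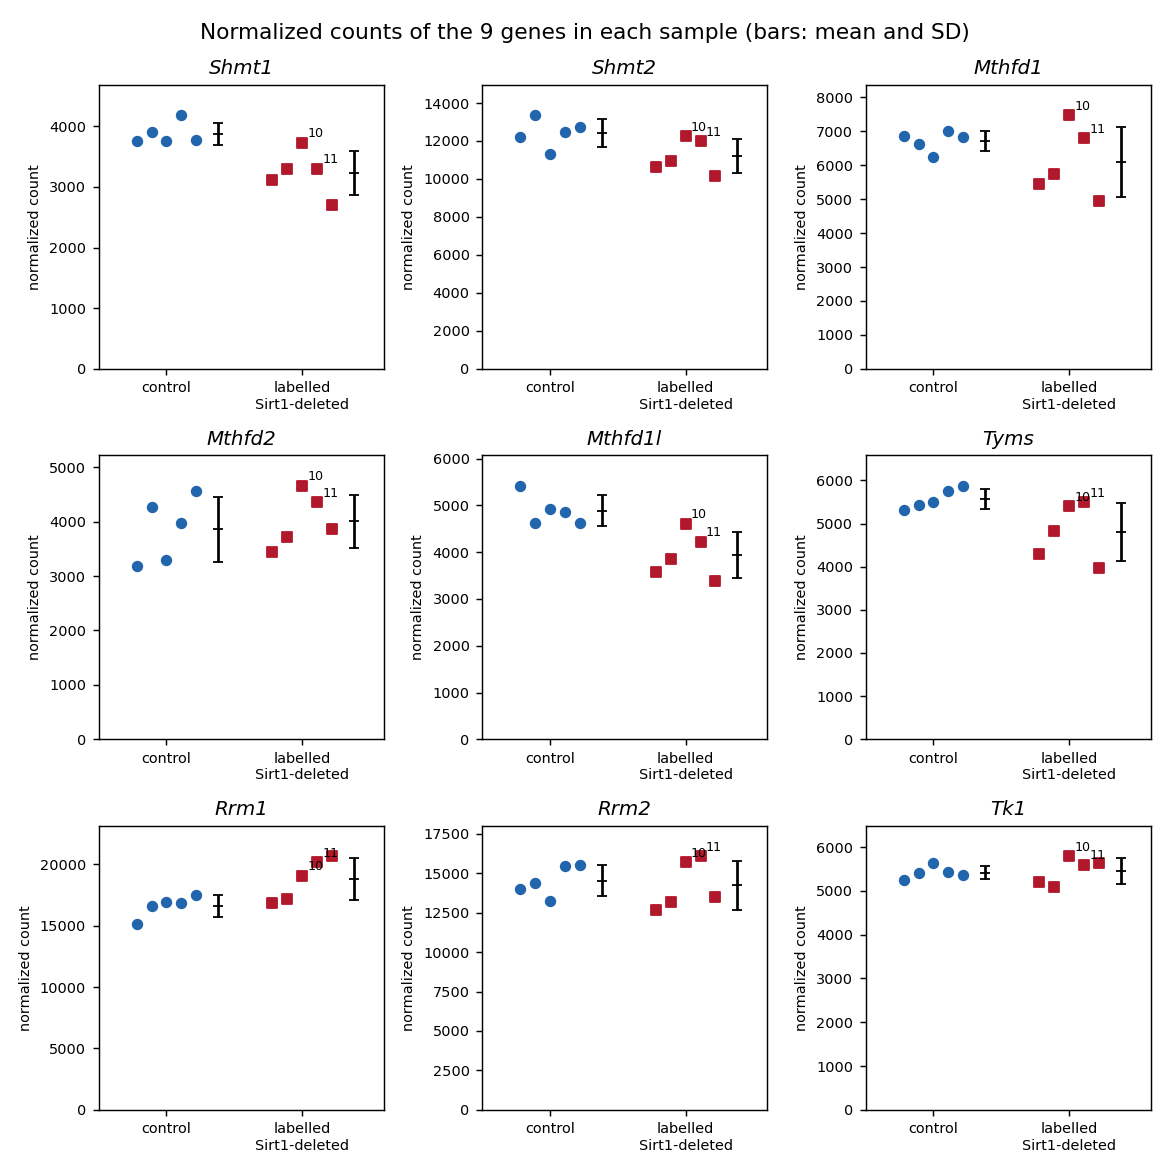
Normalized counts (y axes, from 0) of the 9 genes in each of 5 control samples (blue circles) and 5 labelled Sirt1-deleted samples (red squares), with the mean and SD beside each group and replicates 10 and 11 marked. The groups are apart in Shmt1 and Mthfd1l and overlap in the other 7 genes, and replicates 10 and 11 are the 2 highest red points in 7 of the 9 panels.

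In deoxynucleotide synthesis, thymidylate synthase fell and the large subunit of ribonucleotide reductase rose. Tyms (ENSMUSG00000025747.12, chr5:30058202-30073617) encodes thymidylate synthase, which uses methylene folate to methylate deoxyuridylate. Controls had 5312, 5431, 5495, 5760 and 5873 normalized counts, and the labelled Sirt1-deleted samples had 4287, 4819, 5404, 5492 and 3973. Replicates 10 and 11 were at the level of the lower controls, and replicates 7, 8 and 12 were below all controls. The mean fell by 14.0%, from 5574 ± 234 to 4795 ± 669 (mean ± SD, n = 5 per group; log2 difference -0.23, SE 0.08, limma adjusted p = 0.0488). When 1 sample at a time was omitted, this call was held without replicate 10 or without replicate 11. It was lost on omission of any of the other 8 samples, with log2 differences from -0.16 (without replicate 12) to -0.24 (without control 2).

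Rrm1 (ENSMUSG00000030978.10, chr7:102441695-102469771) encodes the large, catalytic subunit of ribonucleotide reductase. Controls had 15132, 16581, 16948, 16838 and 17508 normalized counts, and the labelled Sirt1-deleted samples had 16875, 17187, 19087, 20194 and 20649. Replicates 10, 11 and 12 were above every control, and replicates 7 and 8 were among them. The mean was 16601 ± 889 in controls and 18798 ± 1714 in the labelled Sirt1-deleted samples, 13.2% more (log2 difference 0.18, SE 0.06, limma adjusted p = 0.0481, exact two-sided permutation p = 0.0556). When 1 sample at a time was omitted, the call was held without replicate 7 or without replicate 8. It was lost on omission of any of the other 8, with log2 differences of 0.14 to 0.20.

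Rrm2 encodes the small subunit, whose protein limits the enzyme to dividing cells. Controls had 13986, 14398, 13233, 15485 and 15532 normalized counts, and the labelled Sirt1-deleted samples had 12665, 13196, 15694, 16073 and 13510. Replicates 10 and 11 were above every control and replicates 7 and 8 below every control, so the group spanned the whole range of the controls. The log2 difference was -0.03 with a 95% interval of -0.19 to 0.13 (limma adjusted p = 0.749). Within a sample, the ratio of Rrm2 to Rrm1 was 0.78 to 0.92 in controls and 0.65 to 0.82 in the labelled Sirt1-deleted samples, lower by 0.21 on the log2 scale but short of the threshold after adjustment (exact two-sided permutation p = 0.0238, adjusted p = 0.0635 over 6 ratios). Rrm2b, the p53-inducible form of the small subunit, is a reference point here. It fell from 524 ± 51.6 to 434 ± 31.3 (mean ± SD, n = 5 per group; log2 difference -0.27, limma adjusted p = 0.0251), a call that was lost after upper-quartile rescaling (limma adjusted p = 0.0614) and after rescaling to T lineage markers (limma adjusted p = 0.121) or replication genes (limma adjusted p = 0.372). The ratio of Rrm2 to Rrm2b was 22.8 to 31.8 in controls and 30.7 to 37.0 in the labelled Sirt1-deleted samples (log2 difference 0.24, exact two-sided permutation p = 0.0317, adjusted p = 0.0635 over 6 ratios).

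Tk1 encodes the cytosolic thymidine kinase of the salvage route, an enzyme of S phase cells. Controls had 5241, 5415, 5640, 5439 and 5364 normalized counts, and the labelled Sirt1-deleted samples had 5206, 5087, 5790, 5595 and 5636. All 10 values lay within a narrow band, with replicate 8 lowest and replicate 10 highest. The log2 difference was 0.01, and its 95% interval of -0.09 to 0.11 was the narrowest of the 9 (limma adjusted p = 0.890). Tk2, the mitochondrial thymidine kinase, had 650 ± 25.3 normalized counts in controls and 721 ± 39.0 in the labelled Sirt1-deleted samples (mean ± SD, n = 5 per group; limma adjusted p = 0.0815). Under each of the 4 rescalings Tk2 passed as higher (limma adjusted p from 0.0263 to 0.0486). The upper-quartile, T lineage and replication rescalings lift all genes of the labelled Sirt1-deleted group together, so they are no separate support for a rise. The ratio of Tk1 to Tk2 was 7.97 to 8.75 in controls and 6.93 to 8.78 in the labelled Sirt1-deleted samples (log2 difference -0.14, exact two-sided permutation p = 0.0635, adjusted p = 0.0952 over 6 ratios). Replicate 10 had the highest ratio of its group, level with the highest control, so leaving it out lowers the group mean by construction. Without it the ratio passed (log2 difference -0.19, exact permutation adjusted p = 0.0476).

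**Figure D2:**
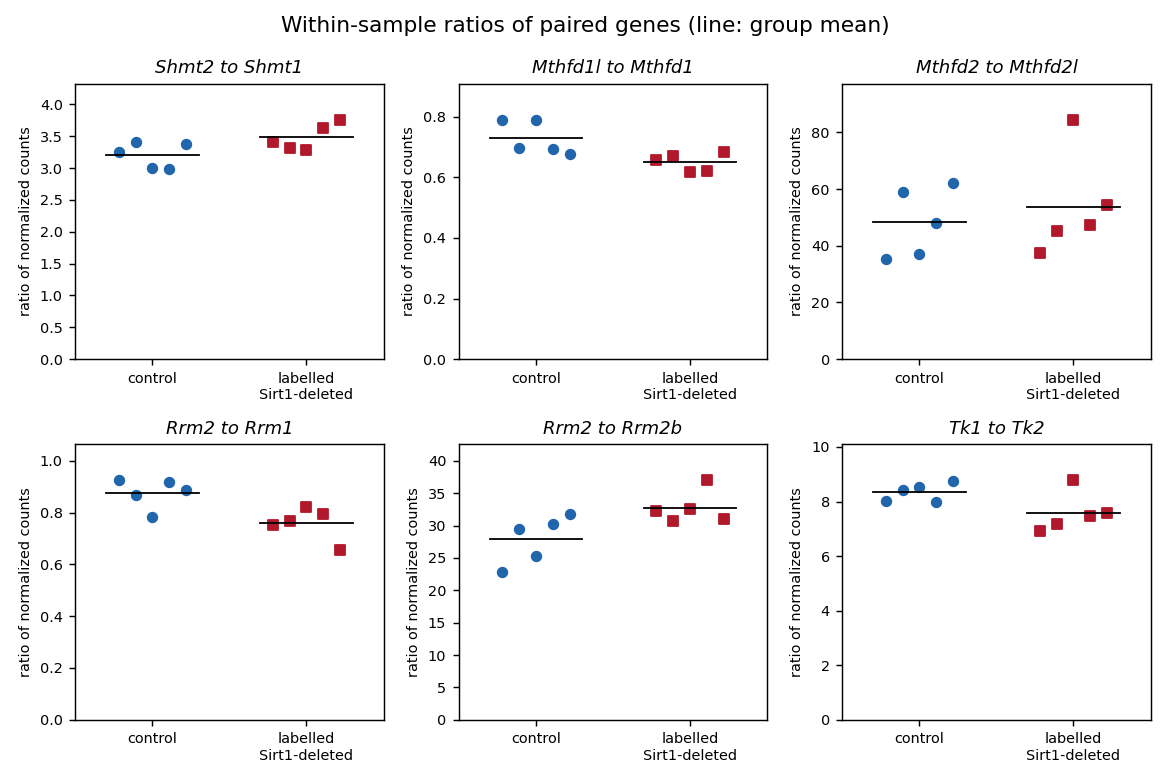
Ratio of the normalized counts of 2 genes (y axes, from 0) in each control sample (blue circles) and labelled Sirt1-deleted sample (red squares), with a line at the group mean, for 6 pairs. The groups overlap in all 6 pairs, and none of the 6 adjusted permutation p-values was under 0.05 with all 10 samples.

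The labelled Sirt1-deleted group was not uniform in these genes. Replicates 10 and 11 were its 2 highest samples in 7 of the 9 genes (Shmt1, Shmt2, Mthfd1, Mthfd2, Mthfd1l, Tyms and Rrm2), which held for 23.7% of all tested genes. The exceptions were Rrm1, where replicate 12 was highest, and Tk1, where replicate 12 came second. The same 2 samples had the highest summed value of 20 replication and cell cycle genes in the group, 249977 and 249199, against 208937 to 216764 in the other 3 and 233420 to 260828 in controls. They also had the 2 lowest sums of neutrophil markers in the group, 28861 and 39557, and the 2 lowest sums of T lineage markers. By the mean log2 value of the same T lineage markers the order was reversed. Replicates 10 and 11 were then the 2 highest of the group, at 12.58 and 12.64 against 12.46 to 12.57 in the other 3. The part of these cell and cycle markers in the results was not tested beyond the rescalings that follow.

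Without replicates 10 and 11, 45.6% of all tested genes passed, with 21% higher and 24.5% lower. Since these samples were the 2 highest of the group in 7 of the 9 genes, leaving them out lowers the group mean of those 7 by construction. In that fit 5 of the 9 genes passed, all as lower: Mthfd1l (log2 difference -0.44), Tyms (-0.36), Shmt1 (-0.36), Mthfd1 (-0.32) and Shmt2 (-0.23), with limma adjusted p from 3.61e-04 to 0.00590. In the same fit Rrm1 did not pass (0.13, limma adjusted p = 0.153), nor did Rrm2 (-0.14, limma adjusted p = 0.0630). Mthfd2 (-0.06) and Tk1 (-0.03) changed sign and did not pass.

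Rescaling to a list used the mean log2 value of its genes in each sample, not their sum. When every sample was rescaled to its T lineage markers, Mthfd1l and Shmt1 passed as lower and Rrm1 as higher, while Tyms did not pass (log2 difference -0.16, limma adjusted p = 0.0725). This rescaling lifted the labelled Sirt1-deleted group, with Rrm1 at 0.24 instead of 0.18. Rescaling to the summed value of the markers was not run. When every sample was rescaled to the replication and cell cycle genes, all tested genes together shifted to a median log2 difference of 0.15. In that fit 26.2% of all tested genes passed, with 20.3% higher and 5.92% lower. Rrm1 passed as higher (log2 difference 0.32), and none of the 9 genes passed as lower, with Mthfd1l at -0.17 (limma adjusted p = 0.0689), Shmt1 at -0.12 (limma adjusted p = 0.174) and Tyms at -0.08 (limma adjusted p = 0.304). This rescaling divides all genes of a sample by the same factor, so distances from the median of all tested genes stay nearly unchanged by construction. With either scaling Mthfd1l was 0.32 below that median, Shmt1 0.27 below, and Rrm1 0.18 above, which is no test of these differences.

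**Figure D3:**
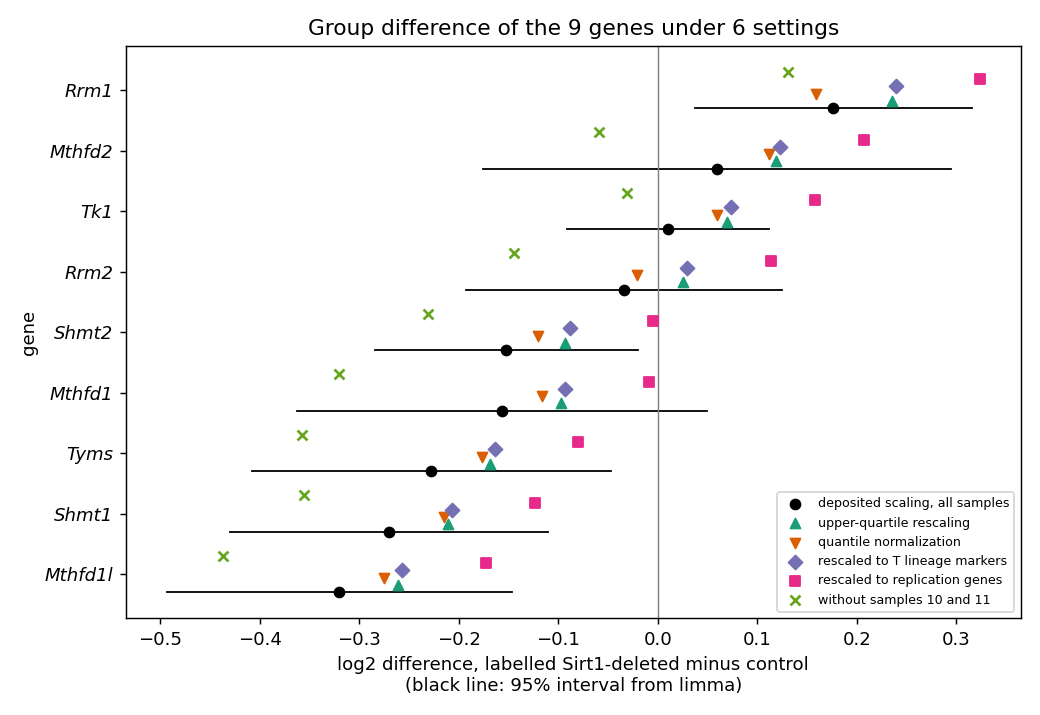
Log2 difference, labelled Sirt1-deleted minus control (x axis), of each of the 9 genes (y axis) with the deposited scaling (black circles with the 95% interval of limma), under 4 rescalings and without replicates 10 and 11. Mthfd1l, Shmt1, Tyms, Shmt2 and Mthfd1 stay left of 0 and Rrm1 stays right of 0 in all 6 settings, while Mthfd2, Tk1 and Rrm2 fall on both sides. Shmt2 and Mthfd1 come close to 0 after rescaling to replication genes.

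**Figure D4:**
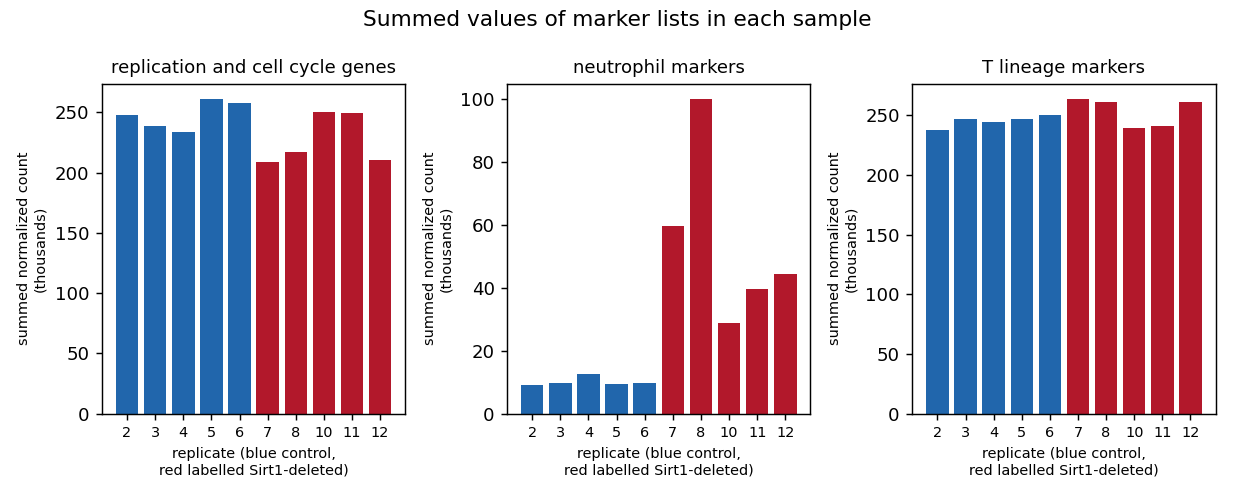
Summed normalized counts divided by 1000 (y axes, from 0) of 20 replication and cell cycle genes, 14 neutrophil markers and 16 T lineage markers in each sample (x axis: replicate number; blue controls, red labelled Sirt1-deleted). Among the red bars, replicates 10 and 11 are the highest for replication genes and the lowest for both marker lists. By mean log2 value, not shown, they are the highest of the red group for T lineage markers.

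Levels can be compared between genes only per length, so normalized counts were divided by the length of the longest annotated coding transcript (GENCODE M21). Per kilobase, Rrm2 was highest in controls at 6624 ± 451, followed by Shmt2 at 5430 ± 326, Rrm1 at 4153 ± 222 and Tk1 at 3764 ± 101 (SD, n = 5). Rrm2, Shmt2 and Rrm1 did not overlap with each other, whereas the lowest control of Rrm1 lay below the highest of Tk1. Mthfd1 (2070 ± 92.1), Mthfd2 (1850 ± 287) and Tyms (1762 ± 74.0) came next, and the range of Mthfd2 covered the values of the other two. Shmt1 (1357 ± 63.3) and Mthfd1l (1326 ± 87.9) were lowest and overlapped. Both genes whose groups lay apart were therefore at the low end of the 9.

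Of 20 other tested genes of the folate cycle, 2 rose and 2 fell, with a median log2 difference of -0.03. Slc19a1, the reduced folate carrier that also imports methotrexate, fell from 2459 ± 115 to 1864 ± 223 normalized counts (mean ± SD, n = 5 per group; log2 difference -0.41, limma adjusted p = 0.00256). Mtr, methionine synthase, fell by 0.34 (limma adjusted p = 0.0156). Mtfmt, which formylates the mitochondrial initiator tRNA with a folate-borne unit, rose by 0.22 (limma adjusted p = 0.0116), and Mthfs, which returns folinic acid to the cycle, rose by 0.76 from a low level of 25.4 ± 7.36 (limma adjusted p = 0.0326), a call that was lost after quantile normalization (0.48, limma adjusted p = 0.150). The count of falls was 4 without replicate 10, and that of rises was 1 without replicate 7, 8, 11 or 12 or without control 2, 4 or 6.

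Among 13 genes of the methionine cycle and polyamine synthesis, 3 rose and 3 fell, with a median of 0.13. Ahcy, which removes S-adenosylhomocysteine, fell by 0.36 (limma adjusted p = 0.00792), as did its relatives Ahcyl1 (-0.29) and Ahcyl2 (-0.62). Mat2a, which makes S-adenosylmethionine, rose from 7317 ± 167 to 9059 ± 1036 normalized counts (mean ± SD, n = 5 per group; log2 difference 0.30, limma adjusted p = 0.00508). Sms, spermine synthase, rose by 0.18 and Bhmt by 1.64, the latter from 12.2 ± 5.97 to 39.9 ± 19.6 normalized counts.

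Of 24 other tested deoxynucleotide genes, 8 rose and 4 fell, with a median of 0.09. Without control 2 these counts were 4 and 1, without replicate 7 they were 5 and 2, and without replicate 12 they were 5 and 3. The largest rises were in Cmpk2, a mitochondrial nucleotide kinase known as interferon-inducible (1.39, limma adjusted p = 1.04e-04), and Samhd1, which breaks down deoxynucleotides (1.20, limma adjusted p = 6.89e-04). Samhd1 is also known for high levels in myeloid cells, whose markers rose in the same samples, and the part of those cells in its value was not tested. Nme1 rose (0.38) and its neighbour Nme2 fell (-0.44), but the 2 genes are near copies of each other and reads can be split between them, so both are uncertain. Cda, cytidine deaminase, fell from 22.4 ± 6.12 to 6.65 ± 4.92 normalized counts (limma adjusted p = 0.0220), and the call was lost with a pseudocount of 0.1 (limma adjusted p = 0.0646).

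In purine synthesis, which takes one-carbon units at 2 steps, 2 of 15 tested genes rose and 6 fell (median -0.13). Gart, whose product carries out one of these steps, rose from 8324 ± 104 to 11501 ± 1912 normalized counts (mean ± SD, n = 5 per group; log2 difference 0.45, limma adjusted p = 0.00259), and the salvage gene Aprt rose by 0.45. Impdh2, the entry to guanine nucleotides, fell by 0.42 (limma adjusted p = 0.00804), Adsl by 0.41 (limma adjusted p = 0.0288) and Adssl1 by 0.51 (limma adjusted p = 0.00662). Of 8 tested pyrimidine genes, 1 rose and 2 fell (median -0.13). Cad, the first enzyme of the route, fell from 11559 ± 1313 to 8259 ± 1882 (log2 difference -0.51, limma adjusted p = 0.0136), while Uck1 fell by 0.16 and Uckl1, a uridine kinase relative, rose by 0.45. The call for Uck1 was lost under each of the 4 rescalings, and 1 pyrimidine gene fell without replicate 7, 8 or 12 or without control 2, 4 or 5. In the serine supply, 1 of 7 genes rose and 2 fell (median -0.12): Phgdh, the first step of serine synthesis, fell by 0.26 (limma adjusted p = 0.0283), the transporter Slc1a4 fell by 0.61 and the transporter Slc1a5 rose by 0.20. No serine gene fell without replicate 7, control 3 or control 6, and 1 fell without replicate 12 or control 2. The rise was lost without replicate 7 or 12 or without control 2, 4 or 5.

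Of the 20 replication and cell cycle genes, 1 rose and 8 fell, with a median of -0.20, which was below that of the 9 genes. Ccnb1, cyclin B1, had the largest fall (-0.56, limma adjusted p = 0.00766). The count of falls dropped to 3 without replicate 7 or without control 5, to 4 without control 2, and to 5 without replicate 8 or without control 6. Rescaling to these genes, which moved the median of all tested genes to 0.15, ended the calls of Mtr, Ahcyl1, Adsl, Adssl1, Phgdh, Slc1a4 and Trp53. It also ended those of Mcm2, Mcm5, Mcm6 and Mcm7. Mcm genes are among those that set this factor, so this is no test of them.

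**Figure D5:**
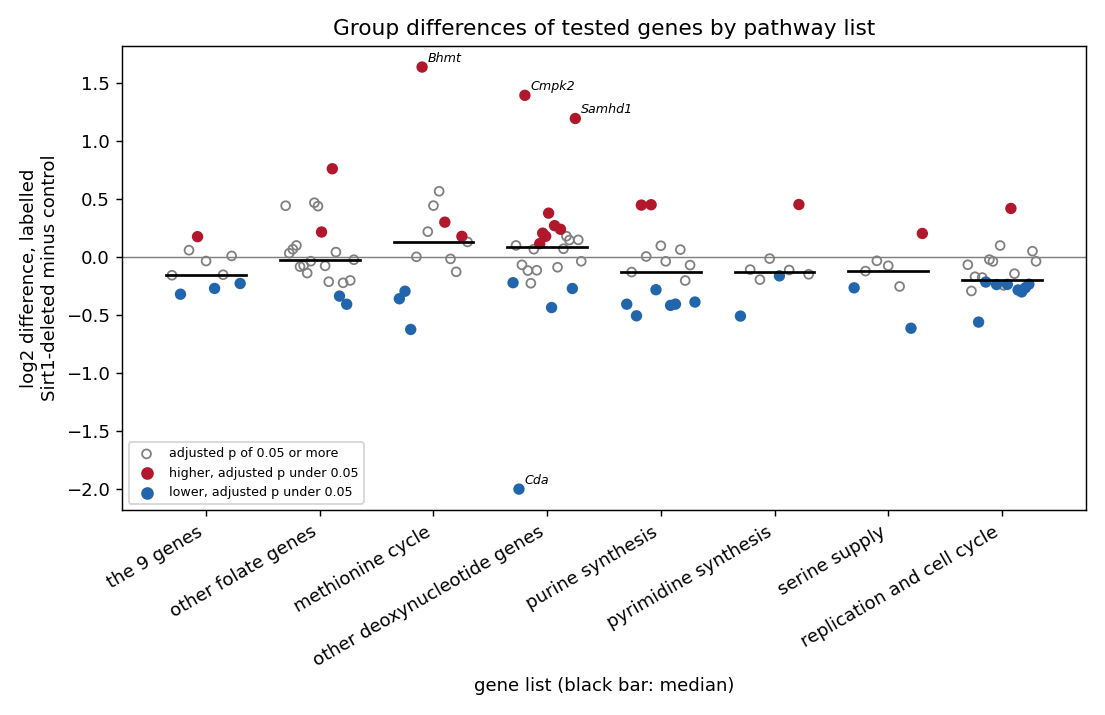
Log2 difference, labelled Sirt1-deleted minus control (y axis), of every tested gene in the 9-gene set and in 7 further lists (x axis), with open grey circles for an adjusted p of 0.05 or more, red for genes that rose, blue for genes that fell, and a black bar at the median. The medians lie between -0.20 and 0.13, and the genes beyond 0.9 in size are Bhmt, Cmpk2, Samhd1 and Cda.

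Regulators known to act on these genes were measured too. Atf4, whose product drives Mthfd2, Shmt2 and the serine genes under stress, rose from 6684 ± 549 to 8924 ± 592 normalized counts (mean ± SD, n = 5 per group; log2 difference 0.42, limma adjusted p = 8.28e-04), with no overlap between the groups. Ddit3, another stress-response gene, rose by 0.38 (limma adjusted p = 0.0221). Neither Mthfd2 nor Shmt2 passed the test. Of the serine supply genes, Phgdh and Slc1a4 fell and Slc1a5 rose. In limma without trend the calls of Phgdh and Slc1a5 were lost (limma adjusted p = 0.0612 and 0.0641). Myc, whose product is known to act on Shmt2 and Cad, did not pass (log2 difference -0.10, limma adjusted p = 0.204). Cdkn1a, the cell cycle inhibitor gene, rose by 1.88, and Trp53 fell by 0.31 (limma adjusted p = 3.52e-05 and 0.0176).

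For the 3 genes with the largest differences, the tested genes with the most similar profile over the 10 samples were found by the root mean square difference of log2 values centred on each gene, among 10582 genes with a mean of at least 100. Mthfd1l was most like Api5 (0.036), Elac2 (0.038) and Ino80 (0.038). Shmt1 was most like Pigu (0.033), Npat (0.048) and Pfkl (0.049), and Tyms was most like Tcea1 (0.040), Psmb7 (0.041) and Mettl9 (0.041).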

How the data were processed

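The deposited table holds 1 column of gene-level values for each of the 10 samples and 0 other columns. Its name states that the authors divided counts by DESeq normalization factors, so the deposited values are a normalized signal and not raw counts. Strand-specific libraries were made, per the labels' protocols. Kallisto 0.44.0, DESeq and mm10 are named per the submitters' processing notes, and the annotation, the step from transcripts to genes and any gene filter are not given in the sources used here. Of the low values (up to 8.5 reads), 69.5% to 73.9% per sample came within 0.1 of a whole multiple of the value of 1 read, so whole reads were not recovered and no count test was run. The approximate depth rests on that spacing and no counting interval was taken from it.

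Log2(value + 1) was tested for 15276 genes with limma 3.58.1 in R 4.3.3 (group as the only term, intensity trend, Benjamini-Hochberg adjustment over all tested genes, threshold 0.05). This scale understates changes of low genes. Single values were compared by exact two-sided permutation over 252 assignments of the samples. The script was tested on simulated data. No 2 samples shared a value above 0 in any gene.

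The 9 genes and all lists were chosen with earlier results of these data known. Beside the 9 genes, text names the 3 largest rises and 3 largest falls past the threshold in each of 7 pathway lists, the partners Mthfd2l, Rrm2b and Tk2 (another partner gene is not reported here), 6 reference genes, and the 3 genes of most similar profile for each of 3 members. Smcr8 was named because its exons overlap those of Shmt1. Promoters came from RefSeq, transcript lengths and gene positions from GENCODE M21. Alternatives were other pseudocounts, minimum means, scalings and tests, and the omission of samples.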

Additional observations from a re-analysis of the deposited data

How the results depend on the processing

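No paired analysis was possible because controls and labelled Sirt1-deleted samples have no replicate number in common. Count tests were not run, since whole reads were not recovered. The number of the 9 genes that passed was 4 with all samples. It was 2 with no minimum mean, after quantile normalization, in limma without trend and with the exact rank-sum test, 1 after rescaling to replication genes, and 2 to 5 without 1 sample. Mthfd1l and Shmt1 passed in each fit without 1 sample and in 10 of 11 alternatives that kept all samples, the exception being the rescaling to replication genes. These alternatives are not independent, since other pseudocounts and minimum means left the log2 differences of both genes nearly unchanged. Tyms passed in 4 of those 11 and Rrm1 in 6. Over all tested genes, 5518 (36.1%) passed, 3659 (24%) with the exact rank-sum test and 4207 to 6259 without 1 sample. After rescaling to replication genes 26.2% passed. The number over all tested genes thus moved with the setting too, so these changes in the count are not read as particular to the 9 genes. Genes that passed as higher and lower numbered 2562 and 2956 as deposited, 3162 and 2272 after upper-quartile rescaling, 3011 and 1978 after rescaling to T lineage markers, and 3098 and 905 after rescaling to replication genes.

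Some values of single genes and ratios changed sign, and none passed under the setting that changed it. Rrm2 was at 0.025 after upper-quartile rescaling, 0.029 after rescaling to T lineage markers and 0.113 after rescaling to replication genes. With sample weights, Mthfd2 was at -0.036 and Tk1 at -0.025. Without replicates 10 and 11 together, Mthfd2 was at -0.059, Tk1 at -0.031 and the ratio of Mthfd2 to Mthfd2l at -0.061. After rescaling to replication genes, Mcm4 was at 0.0042 and Myc at 0.051. Without 1 sample, Rrm2 ranged from -0.080 to 0.0062, Tk1 from -0.011 to 0.035, Mthfd2 from -0.0058 to 0.123 and the ratio of Mthfd2 to Mthfd2l from -0.043 to 0.252. The ratio of Mthfd1l to Mthfd1 ranged from -0.190 to -0.134 and passed only without control 6, that of Rrm2 to Rrm2b from 0.166 to 0.287 and passed only without control 6, and that of Tk1 to Tk2 from -0.192 to -0.107 and passed only without replicate 10. The causes were not tested. The lowest value of the 9 genes in any sample was 2703 normalized counts (Shmt1), so counting error is small for them, and depth limits low genes such as Cda and Bhmt instead. The counts of the pathway lists and the values of their genes under these settings were added after seeing the data.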

Other observations

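The subunits of the replicative helicase did not move together. MCM2 to MCM7 form 1 hexamer that unwinds DNA, and Mcm3 rose from 12590 ± 918 to 16880 ± 1880 normalized counts (mean ± SD, n = 5 per group; log2 difference 0.42, limma adjusted p = 0.00168). In the same samples Mcm2 (-0.24), Mcm5 (-0.28), Mcm6 (-0.30) and Mcm7 (-0.27) fell, while Mcm4 (-0.14) did not pass. Mcm3 passed as higher after quantile normalization (0.43), upper-quartile rescaling (0.48) and rescaling to T lineage markers (0.48), and the last 2 ended the call of Mcm2. Rescaling to replication genes ended the calls of Mcm2, Mcm5, Mcm6 and Mcm7 (limma adjusted p from 0.0819 to 0.196), while Mcm3 passed (0.57). Mcm genes are among those that set this factor, and it lifts all genes of the labelled Sirt1-deleted group. The outcome of this rescaling is therefore no test of them. In limma without trend Mcm3 and Mcm7 passed, and Mcm2, Mcm5 and Mcm6 did not (limma adjusted p from 0.0530 to 0.0669). In the purine route, Gart rose by 0.45 and Paics, whose product acts later in the route, fell by 0.41 (limma adjusted p = 0.00207). Mcm2, Mcm4, Mcm7 and Paics were singled out after their values were seen.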
